A study of Mus musculus with 2 samples.

Results

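Genes of CDK inhibition and of the p53 and RB pathways were read in 1 library of brown preadipocytes (D0) and 1 of brown adipocytes (D7). The group is 10 genes chosen by symbol, out of 23361 rows with a value in the table. It comprises the 3 CIP/KIP inhibitors of cyclin-dependent kinases (Cdkn1a, Cdkn1b and Cdkn1c), the 4 INK4 inhibitors (Cdkn2a, Cdkn2b, Cdkn2c and Cdkn2d), Trp53, Mdm2 and Rb1. All 10 were found, each on 1 row, and all 10 had an FPKM of at least 1 in both libraries. FPKM is a fragment number scaled by transcript length and by library size, so levels of different genes can be set side by side per length.

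Both libraries came from cells of newborn mice, taken from interscapular brown adipose tissue. The strain is given as C57BL/6 in the labels and as C57BL/6J in the study's methods. The growth medium of the cells for both libraries had 20% FBS. Cells for D0 and D7 were plated 4 days before induction in DMEM with T3 (1 nM), insulin (0.1 μM) and 10% FBS. Cells for D7 were induced from D0 for 2 days with dexamethasone (2 μg/ml), indomethacin (0.125 mM) and IBMX (0.5 mM) in the same medium. That medium was then used alone until D7. The D0 library is labelled as preadipocytes, the stage before induction, so the libraries also differ in this treatment. The labels of the samples name the cells as primary cultures, and the study's results also call the sequenced preadipocytes primary cultured. The study's methods describe immortalization with the retroviral plasmid pBabepuro-large T, and give other insulin and dexamethasone concentrations. The sources used here do not say whether the sequenced cells had been immortalized, nor whether cells of several newborns were pooled in a library. The viral transcript itself was not analysed here. All 9 adipocyte markers were at least 2.0-fold higher at D7, beside 18.5% of all rows above 0 in both libraries. Their summed FPKM went from 87.1 to 18605. Of the 7 brown adipocyte markers, 4 (Ucp1, Cidea, Elovl3 and Cox8b) were listed at 0 at D0 and had FPKM of 4.57, 24.4, 34.2 and 253 at D7. Of the other 3, Cox7a1 and Ppargc1a were at least 2.0-fold higher at D7, and Prdm16 (FPKM 0.835 and 1.02) did not reach 2.0-fold.

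Cyclin-dependent kinases drive a cell through its cycle when a cyclin binds them. INK4 proteins bind CDK4 and CDK6 and keep D-type cyclins away, whereas CIP/KIP proteins bind cyclin and kinase together and act mainly on CDK2. Active kinases phosphorylate RB, the retinoblastoma protein, which otherwise holds E2F transcription factors in check. The factor p53 transcribes Cdkn1a and also Mdm2, whose protein marks p53 for degradation, and p19ARF, a second product of Cdkn2a, blocks MDM2. The large T antigen of SV40 binds the p53 and RB proteins, and transcript levels do not tell how much of either protein is free. Preadipocytes leave the cell cycle as they become adipocytes, and RB and CDK inhibitors are known to take part in that exit.

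The sequences below show what the value of a gene with several starts covers. Cdkn2a has 1 value in the table, but it encodes 2 unrelated proteins from 2 first exons. In GENCODE M21 (mm10, GRCm38), the first exon of the p19ARF transcript lies at chr4:89294334-89294653 and that of the p16INK4a transcript at chr4:89281986-89282192, both on the minus strand. Both are joined to the same exon 2 at chr4:89276645-89276985. The deposited locus spans both first exons, so p16INK4a and p19ARF transcripts cannot be told apart in the value. In the following runs, the last 30 bases of each first exon are in lower case, and the first 30 bases of exon 2 are in capitals.
p16INK4a: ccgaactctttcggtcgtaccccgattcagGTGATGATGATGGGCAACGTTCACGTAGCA
p19ARF: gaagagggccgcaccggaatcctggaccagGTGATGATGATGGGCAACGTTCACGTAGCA
The first base of exon 2 is base 1 of a codon in the p16INK4a transcript and base 2 of a codon in the p19ARF transcript. The same letters are thus read in different frames. The coding sequences are 504 and 507 bases long.

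Promoter windows of 300 bases (250 before and 50 after an annotated start, RefSeq, GRCm38.p6) were given for 8 of the 10 genes, 11 windows in all. No window was given for Cdkn1c and Rb1. The windows shown are those of Cdkn2c, which had the highest ratio, of Trp53, which had the lowest, and of the upstream start of Cdkn1a, the gene with the highest level. Capitals mark matches, on either strand and with overlaps allowed, to the E2F motif (TTTCCCGC, TTTCGCGC, TTTGCCGC or TTTGGCGC), the GC box (GGGCGG), the CCAAT box (CCAAT), the cell cycle homology region or CHR (TTTGAA), and the p53 decamer. The decamer was RRRCWWGYYY without mismatches, where R is A or G, W is A or T and Y is C or T.
Cdkn2c, upstream start, minus strand, chr4:109666707-109667006: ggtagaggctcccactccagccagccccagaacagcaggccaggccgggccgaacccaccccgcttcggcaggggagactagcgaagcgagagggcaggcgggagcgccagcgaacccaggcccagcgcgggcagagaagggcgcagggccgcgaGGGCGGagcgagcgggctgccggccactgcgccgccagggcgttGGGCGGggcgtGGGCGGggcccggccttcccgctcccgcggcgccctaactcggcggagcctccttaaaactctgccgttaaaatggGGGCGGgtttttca
Cdkn2c, downstream start, minus strand, chr4:109665323-109665622: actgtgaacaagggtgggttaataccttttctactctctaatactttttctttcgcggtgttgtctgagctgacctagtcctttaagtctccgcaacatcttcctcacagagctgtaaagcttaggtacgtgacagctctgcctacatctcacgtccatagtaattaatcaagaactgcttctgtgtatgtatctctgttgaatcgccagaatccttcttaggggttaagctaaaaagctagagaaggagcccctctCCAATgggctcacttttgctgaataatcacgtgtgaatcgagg
Trp53, plus strand, chr11:69580109-69580408: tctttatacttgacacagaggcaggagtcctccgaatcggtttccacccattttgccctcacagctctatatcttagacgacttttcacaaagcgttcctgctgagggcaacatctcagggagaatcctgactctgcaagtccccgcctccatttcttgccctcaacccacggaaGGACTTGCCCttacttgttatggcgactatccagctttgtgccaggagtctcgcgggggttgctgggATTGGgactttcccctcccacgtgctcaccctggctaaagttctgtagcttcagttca
Cdkn1a, upstream start, plus strand, chr17:29090729-29091028: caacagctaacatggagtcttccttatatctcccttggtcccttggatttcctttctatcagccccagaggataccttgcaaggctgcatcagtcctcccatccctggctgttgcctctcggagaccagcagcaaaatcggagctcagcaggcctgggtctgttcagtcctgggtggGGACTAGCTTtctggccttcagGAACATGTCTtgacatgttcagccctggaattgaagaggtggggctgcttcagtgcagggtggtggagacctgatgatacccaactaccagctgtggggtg
The windows of the starts of Cdkn2c differ in their letters. The upstream window held 4 GC boxes and was 73.3% G and C, and the downstream window held 1 CCAAT box and was 44% G and C. The deposited locus of Cdkn2c ends at its downstream start, 1384 bases short of the upstream start, so an exon at the upstream start lies outside it. The upstream window of Cdkn1a held 2 p53 decamers, which begin at bases -73 and -51 from the start. The window of its downstream start, not shown, held 2 GC boxes and no p53 decamer. The Trp53 window held 1 p53 decamer and 1 CCAAT box. Of the 11 windows, 4 held a p53 decamer, 1 (that of the p19ARF start) an E2F motif, 1 (Cdkn2b) a CHR, 6 a CCAAT box and 8 a GC box. Among all 32851 windows of the same length, these motifs were found in 8.36%, 2.26%, 17.9%, 37.4% and 35.7%, in the same order. A match describes letters and not a bound factor.

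The 10 genes did not change together. Cdkn2c, Rb1 and Cdkn1c had at least 2.0-fold higher levels at D7, 2.0-fold being the threshold of the study's methods, and Trp53 was lower by at least 2.0-fold. The other 6 genes did not reach 2.0-fold in either direction. Among all 14986 rows above 0 in both libraries, 18.5% were higher and 13.2% lower by at least 2.0-fold, beside 3 of 10 and 1 of 10 here. In either direction it was 31.7% of all rows, beside 4 of 10. The median log2 ratio of the 10 genes was -0.07, and that of all 14986 rows was 0.02. A stage is 1 library, so differences could not be checked against replicates and p-values were not computed. The values were relative to about 21473021 fragments in the D0 library and 18266910 in the D7 library. The 95% intervals given with ratios are exact (Clopper-Pearson), rest on fragment numbers worked out from the FPKM values, and cover counting error between these 2 libraries only. In bulk RNA, fewer cells of a type and less RNA per cell cannot be told apart.

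**Figure D1:**
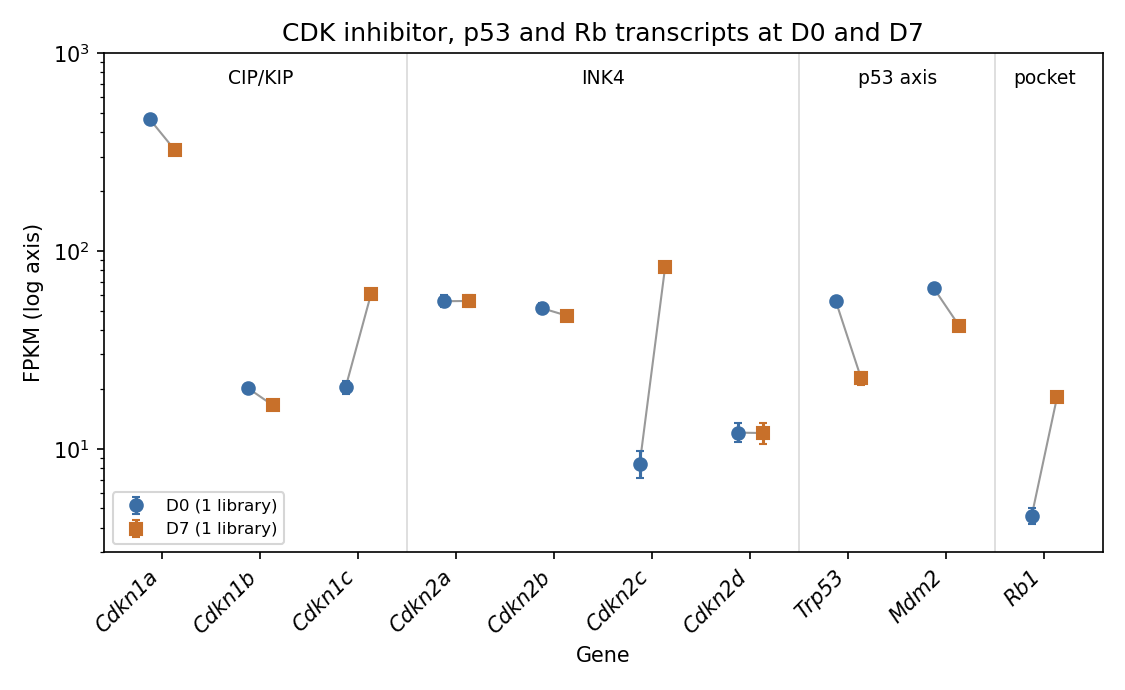
FPKM of the 10 genes (log axis) at D0 (circles) and D7 (squares), 1 library each, with exact 95% Poisson intervals of the fragment number (counting error only). Cdkn1a lies highest in both libraries, Cdkn2c goes from the ninth place to the second, and Cdkn2a, Cdkn2b and Cdkn2d are nearly level.

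Among the INK4 genes, Cdkn2c stood apart. Cdkn2c encodes p18 and lies on chromosome 4 (109660876 to 109667189, minus strand). In the D0 library its FPKM was 8.34 (some 166 fragments), and in the D7 library 82.7 (some 1396 fragments). The D7 value was 9.92 times the D0 value (95% interval 8.44 to 11.7). Only 472 of the 14986 rows had a higher ratio. Cdkn2c was in the ninth place among the 10 genes at D0 and in the second at D7, behind Cdkn1a. Its ratio stayed between 7.77 and 9.92 under the alternatives tried.

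The neighbouring genes Cdkn2a and Cdkn2b, on chromosome 4 at 89274471 to 89294653 and 89306299 to 89311039, showed no such increase. Cdkn2a, the gene of p16INK4a and p19ARF, was present at FPKM 55.7 in preadipocytes and 55.9 in adipocytes. The ratio of 1.00 had an interval from 0.908 to 1.11, and every rescaling tried brought it below 1, to 0.786 at the lowest. Cdkn2b, which encodes p15, went from FPKM 51.4 to 47.1, and its ratio was 0.915 (0.843 to 0.993). Both genes were thus expressed in preadipocytes and adipocytes alike at levels above 93.7% and 93.2% of all rows at D0, and above 93.4% and 92.3% at D7. Cdkn2b transcripts were present at 0.924 of the level of Cdkn2a at D0 and at 0.842 at D7. Cdkn2d, which encodes p19INK4d and lies on chromosome 9 (21288410 to 21291407), had an FPKM of 12.1 in preadipocytes and 12.0 in adipocytes. For this ratio of 0.995 the interval ran from 0.845 to 1.17. No change of Cdkn2a or Cdkn2d was detectable at this depth, although a change inside those intervals is possible. INK4 genes resemble each other, but 0 of 806 stretches of 90 bases, the read length, of the Cdkn2a transcript came within 5 mismatches of the Cdkn2b transcript, and none of the other pairs of INK4 transcripts shared such a stretch.

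The makeup of the INK4 family therefore differed between the libraries. The 4 genes summed to FPKM 128 (D0) and 198 (D7). This sum takes in the whole Cdkn2a value, in which p19ARF transcripts cannot be told apart from those of p16INK4a. Cdkn2c held 6.54% of the sum at D0 and 41.8% at D7, whereas Cdkn2a went from 43.7% to 28.3% and Cdkn2b from 40.3% to 23.8%. These shares do not depend on how the libraries are scaled. The kinases that INK4 proteins bind moved the other way. Cdk4 went from FPKM 236 to 75.3, a ratio of 0.319, and Cdk6 had FPKM 2.99 and 1.94. The summed FPKM of the INK4 genes was 0.533 times that of Cdk4 and Cdk6 at D0 and 2.56 times at D7.

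**Figure D2:**
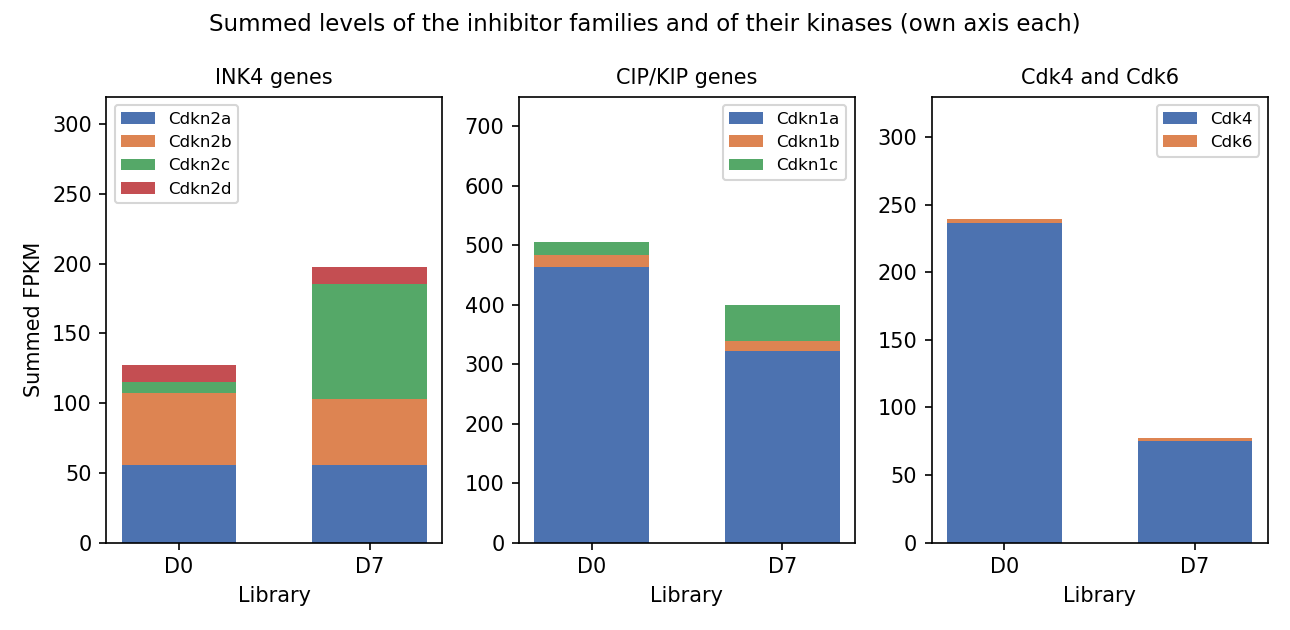
Summed FPKM of the INK4 genes, of the CIP/KIP genes and of Cdk4 and Cdk6 at D0 and D7, with 1 colour per gene and a separate axis from 0 in each panel. The INK4 sum goes from 128 to 198, with most of the gain in Cdkn2c, while the kinases go from 239 to 77.2.

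Of the CIP/KIP genes, Cdkn1c was the one past 2.0-fold. Cdkn1c, an imprinted gene that encodes p57, lies on chromosome 7 (143458339 to 143461050, minus strand). Its FPKM of 20.4 (some 756 fragments) in the D0 library compared with 60.7 (some 1905) in the D7 library. The ratio was 2.97 (95% interval 2.73 to 3.23). An annotated antisense transcript, Gm44732, lies inside the gene on the opposite strand, and although the libraries were made to keep strand, its use in counting was not given in the sources used here. Cdkn1b encodes p27 and lies on chromosome 6 (134920401 to 134925513). It had nearly the same level as Cdkn1c at D0, with an FPKM of 20.3, and 16.6 at D7. Its ratio of 0.815 (0.759 to 0.874) lay below 1 without reaching 0.5. Transcripts of Cdkn1c were thus 1.01 times as abundant as those of Cdkn1b at D0, and 3.66 times at D7.

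Cdkn1a was the most abundant of the 10 genes in both libraries. It encodes p21 and lies on chromosome 17 (29090976 to 29100727). Its FPKM was 464 at D0, where 169 of the 23361 rows were higher, and 322 at D7, where 278 were higher. The ratio of 0.695 (0.678 to 0.712) lay below 1 without reaching 0.5, and was 0.544 when each library was divided by its median. Cdkn1a made up 91.9% of the summed FPKM of the CIP/KIP genes at D0 and 80.7% at D7. The sum itself was 505 at D0 and 400 at D7. All 7 inhibitors together, with the whole Cdkn2a value, came to 632 and 597. The CIP/KIP sum was 3.96 times the INK4 sum at D0 and 2.02 times at D7.

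Trp53, the gene of p53, was lower at D7. It lies on chromosome 11 (69580359 to 69591873). Preadipocytes had an FPKM of 56.1 (some 1917 fragments) and adipocytes 22.8 (some 661). The ratio was 0.406 (95% interval 0.371 to 0.444), and 1360 of the 14986 rows had a lower one. At D0 the counting interval of its level overlapped those of Cdkn2a and Cdkn2b, and at D7 its level was below both. Mdm2, which encodes the ubiquitin ligase of p53, lies on chromosome 10 (117688875 to 117710758). Its FPKM was 65.0 in preadipocytes and 41.9 in adipocytes, for a ratio of 0.645 (0.612 to 0.679). This did not reach 0.5, and neither did the 0.505 obtained when each library was divided by its median.

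Trp53 decreased by more than the transcripts of its known targets Cdkn1a and Mdm2. Mdm2 had 1.16 times the level of Trp53 at D0 and 1.84 times at D7, and Cdkn1a 8.27 times and 14.2 times. The level of Cdkn1a relative to Mdm2 was 7.14 at D0 and 7.69 at D7, so these genes kept nearly the same proportion. Such ratios within a library are free of the scaling between libraries.

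Rb1, the gene of RB, was the least abundant of the 10 genes at D0. Rb1 lies on chromosome 14 (73183673 to 73325822, minus strand). Preadipocytes had an FPKM of 4.58 (some 440 fragments) and adipocytes 18.3 (some 1497). The ratio was 4.00 (95% interval 3.60 to 4.46), and 1211 rows had a higher one. It was 3.46 with a pseudocount of 1 and 3.14 when each library was divided by its median. Rcbtb2 and Lpar6 overlap Rb1 on the opposite strand. Rcbtb2 had an FPKM of 14.1 and 18.1, and Lpar6 of 3.66 and 4.72, so neither changed by as much as Rb1. The share of their reads in the value of Rb1 was not tested. The other pocket proteins, p107 (Rbl1) and p130 (Rbl2), bind E2F factors as RB does. Rbl1 was at FPKM 1.91 and 1.69, and Rbl2 at 9.29 and 17.0. Rbl2 held 58.9% of the summed FPKM of the 3 pocket protein genes at D0, and Rb1 held 49.5% of it at D7.

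**Figure D3:**
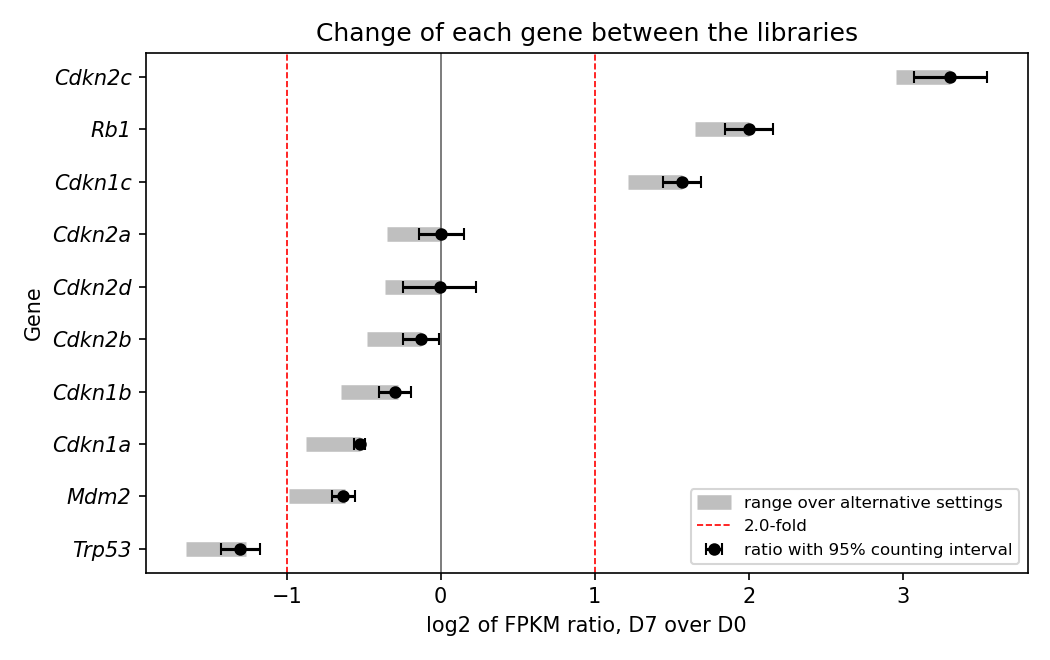
Log2 ratio of FPKM, D7 over D0, for each of the 10 genes, with exact 95% counting intervals (black) and the range over the alternative settings (grey bars). Dashed lines mark 2.0-fold; Cdkn2c, Rb1 and Cdkn1c lie above it and Trp53 below it in every setting, and the grey bars extend to the left by up to 0.35.

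The order of levels was Cdkn1a, Mdm2, Trp53, Cdkn2a, Cdkn2b, Cdkn1c, Cdkn1b, Cdkn2d, Cdkn2c and Rb1 at D0. At D7 it was Cdkn1a, Cdkn2c, Cdkn1c, Cdkn2a, Cdkn2b, Mdm2, Trp53, Rb1, Cdkn1b and Cdkn2d. Neighbours whose intervals overlapped were Trp53 with Cdkn2a, Cdkn2a with Cdkn2b and Cdkn1c with Cdkn1b at D0, and Cdkn1c with Cdkn2a and Rb1 with Cdkn1b at D7. How cultures of one stage vary in these levels is not known.

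Some genes around p53 passed 2.0-fold in either direction, as did 18.5% (higher) and 13.2% (lower) of all rows. Of 30 genes known as p53 targets, Cdkn1a and Mdm2 left out, 4 were higher and 4 lower by at least 2.0-fold, and the median log2 ratio was -0.38. Higher were Sesn1 (sestrin 1, FPKM 6.05 at D0 and 20.4 at D7), Trp53inp1 (23.3 and 76.0), Dram1 (8.86, ratio 3.04), which acts in autophagy, and Phlda3 (205 and 443). Lower were Plk2 (polo-like kinase 2, 96.0 and 11.9), Ckap2 (11.3 and 2.58), a protein of the mitotic spindle, Tnfrsf10b, a death receptor (34.1, ratio 0.322), and Bax, which promotes apoptosis (253 and 115). Ccng1, a further target, had an FPKM of 232 and 266. When each library was divided by its median, 8 targets rather than 4 were lower. That division multiplies the ratio of every row by 0.783, and the share of all rows lower after it was not computed. Of 16 regulators of p53, 15 were above 0 in both libraries, and of these 2 were higher (Hipk2 and Trp63) and 2 lower (Ppp1r13l and Chek1). Hipk2, a kinase of p53, went from FPKM 6.48 to 27.9, a ratio of 4.31, the nearest to that of Rb1 among the pathway lists. The macrophage markers Csf1r (ratio 3.94) and Itgam (4.22) were nearer to Rb1. Ppp1r13l, which encodes the p53 inhibitor iASPP, had an FPKM of 6.14 and 2.82. Trp53bp1 (10.8 and 5.42) and Ppm1d (3.62 and 6.00) did not reach 2.0-fold, and Trp63 was under 0.3 in both libraries. Mdm4, the relative of Mdm2, had an FPKM of 6.48 and 8.46.

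Genes that act on the inhibitors were also read. Of 15 regulators of the CIP/KIP proteins, 1 was higher and 3 were lower by at least 2.0-fold, beside 18.5% and 13.2% of all rows. Skp2, the subunit by which an SCF ligase recognises p27, went from FPKM 5.21 to 1.16. Cdc20 (11.2 and 2.02) and Dtl (1.55 and 0.654), which direct other ligases, were the other lower genes. Foxo1, a factor that transcribes Cdkn1b, was the higher one, at 1.97 and 9.99, and Rnf123 (6.79 and 12.7) did not reach 2.0-fold. Of 22 regulators of the Ink4b-Arf-Ink4a locus, which holds Cdkn2a and Cdkn2b, 1 was higher and 4 were lower, beside the same shares of all rows. Cbx7, a Polycomb protein, had an FPKM of 0.601 and 2.06. Phc2, also a Polycomb protein, was among the lower genes, at 45.3 and 20.9. Hmga2 (34.7 and 4.70) and Ets1 (22.2 and 7.92) had the lowest ratios of this list at FPKM of at least 1. Bmi1, the Polycomb subunit known to repress the locus, had an FPKM of 9.04 and 16.1, and did not reach 2.0-fold.

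Downstream of the inhibitors, 5 of 12 cyclins and kinases were lower by at least 2.0-fold and 0 were higher, beside 13.2% and 18.5% of all rows. Ccnb2 (9.16 and 0.967) and Ccnb1 (10.9 and 1.82), the mitotic cyclins, had the lowest ratios, and Ccnd3 (95.3 and 115) and Ccnd1 (57.7 and 56.7), D-type cyclins, the highest. The summed FPKM of the D-type cyclins was 336 at D0 and 292 at D7. Of 18 genes of pocket proteins, E2F factors and the DREAM complex, 2 were higher and 3 lower, near the shares of all rows (18.5% and 13.2%). At FPKM of at least 1, E2f8 (1.30 and 0.125) and Mybl2 (1.22 and 0.420) had the lowest ratios, and Lin52 (4.74 and 11.4) and Rbl2 the highest. Rbl2 did not reach 2.0-fold, and the other higher gene was under FPKM 1 in both libraries. The summed FPKM of E2f1, E2f2 and E2f3, which drive entry into S phase, was 23.0 and 16.1. Of 25 genes of replication and mitosis, 22 were lower by at least 2.0-fold, with a median log2 ratio of -2.03. Birc5 (14.0 and 1.53) and Plk1 (7.57 and 0.867) had the lowest ratios of these, and Cdc45 (3.13 and 4.63) and Mcm7 (14.2 and 9.62) the highest. The ratio of Trp53 was nearest to those of Mcm4 (0.412) and Rrm2 (0.396), genes of DNA replication and nucleotide synthesis.

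**Figure D4:**
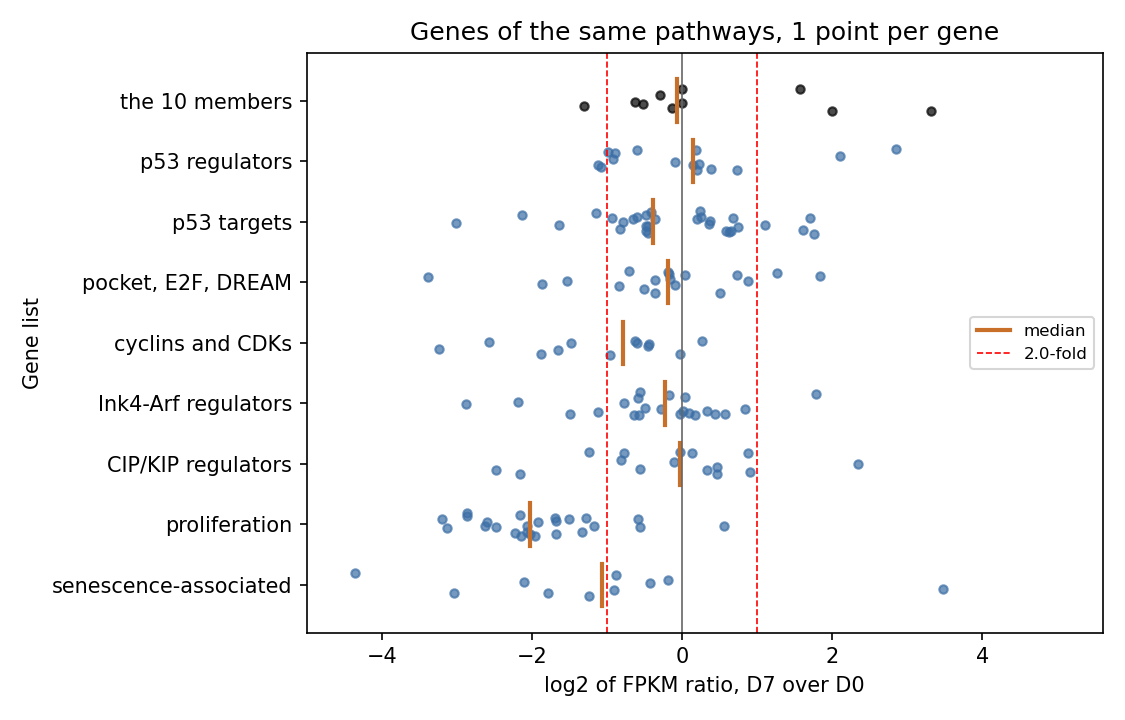
Log2 ratio of FPKM, D7 over D0, for the 10 genes (black) and for the genes of 8 lists around them (blue, 1 point per gene above 0 in both libraries), with the median of each list (orange) and 2.0-fold (dashed). The proliferation list lies lowest, at a median of -2.03, and the p53 targets spread to both sides of 0.

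Markers of other cell types moved between the libraries as well. Of 11 macrophage markers, 10 were at least 2.0-fold higher at D7, beside 18.5% of all rows. The 11 summed to FPKM 156 at D0 and 583 at D7, with none listed at 0. Endothelial markers were low, with a summed FPKM of 1.62 and 2.69 for 7 genes and Tie1 listed at 0 in both. Skeletal muscle markers had a summed FPKM of 51.2 and 4.81, a difference that rests mostly on Acta1 (45.4 and 1.73), and Myod1, Myf5 and Ckm were listed at 0 in both. Of 8 preadipocyte and fibroblast markers, 4 were lower and 2 (Dlk1 and Cd34) higher by at least 2.0-fold. The shares of all rows were 13.2% and 18.5%. All 20 ribosomal protein genes read had a ratio below 1, with a median log2 ratio of -0.88. The part of macrophages and of ribosomal protein transcripts in the values of Cdkn2c, Cdkn1c, Rb1 and Trp53 was not tested.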

How the data were processed

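RNA-Seq of 1 library at D0 and 1 at D7 was analysed. The authors filtered reads for quality, adaptors, duplicates and rRNA and mapped them to mm10 and gene sequences with SOAP2. The submitters' processing notes name Bowtie2. For each gene, the authors deposited an FPKM value of either library. The study's methods name GeneSpring beside the FPKM values and the differential calls. Whether it made the FPKM values, and how strand was used, were not given in the sources used here. Of 27324 rows, 3963 held no value and were left out.

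Ratios of D7 to D0 were taken without a pseudocount or rescaling, for rows above 0 in both libraries. Genes past 2.0-fold in either direction were called. No test across replicates was possible.

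Library sizes came from 571 single-exon genes no shorter than 600 bp. After 179 bp (D0) or 182 bp (D7) was taken off each length, the 71 and 82 low values, those up to 20 fragments, all lay within 0.1 of a whole number, which gave 21473021 fragments (D0) and 18266910 (D7). For the 10 genes the length was that of the transcript named in the table, so their numbers of fragments are approximate.

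Genes and lists were chosen with earlier results of these data known. All 10 genes were named, then the 2 highest and 2 lowest ratios of each pathway list at FPKM of at least 1 in either library, and genes of these lists with the ratio nearest to that of a called gene. Ccng1, Mdm4, Cdk4, Cdk6, Rbl1 and Phc2 were named after their values were seen. So were the remaining called p53 targets, p53 regulators, CIP/KIP regulators and senescence-associated genes. The values of 1 gene that the rule names are not reported here. Alternatives were pseudocounts of 0.1 and 1, TPM, upper quartile scaling, a trimmed mean, the median of ratios, division by the library median after a floor of 0.01, summing of rows with one symbol, a filter at FPKM of 1, and thresholds of 1.5 and 4. Scripts were tested on simulated data. Software was scipy 1.17.1, pandas 2.3.3 and numpy 2.4.6 in Python 3.11.15, with matplotlib 3.10.9 for plots.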

Additional observations from a re-analysis of the deposited data

How the results depend on the processing

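The spread between cultures of a stage is unknown, and no replicate could be left out. No paired analysis was possible because each stage has 1 library. The calls of Cdkn2c, Cdkn1c, Rb1 and Trp53 at 2.0-fold held under every pseudocount and scaling tried, and no other gene of the 10 was called under any of them. Of 80 recomputed ratios of the 10 genes, 68 stayed inside the counting interval and 12 did not, 10 of these after division by the library median. That division shifts every log2 ratio by -0.35, and brought the median log2 ratio of the 10 genes to -0.42. The other scalings shifted them by -0.02 to -0.05.

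Shares of all rows were not computed for the other thresholds, pseudocounts and scalings. The counts below therefore describe how the calls move, and say nothing of a list against all rows. At a threshold of 1.5-fold, 2 of the 10 genes were lower, and at 4-fold 0. At 4-fold, counts of higher genes became 0 for p53 targets, for pocket, E2F and DREAM genes and for Ink4-Arf regulators. Counts of lower genes became 0 for p53 regulators, 2 for p53 targets, 1 for pocket, E2F and DREAM genes, 2 for cyclins and kinases, 2 for Ink4-Arf regulators, 13 for proliferation and 3 for senescence-associated genes. At 1.5-fold, higher genes were 8 for p53 targets, 4 for pocket, E2F and DREAM genes, 2 for Ink4-Arf and 3 for CIP/KIP regulators. Lower genes were then 6 for p53 regulators, 9 for p53 targets, 5 for pocket, E2F and DREAM genes, 8 for cyclins and kinases and 5 for CIP/KIP regulators. After division by the library median, lower genes were 5 for p53 regulators, 8 for p53 targets, 5 for pocket, E2F and DREAM genes and 5 for CIP/KIP regulators, and higher pocket, E2F and DREAM genes were 1. With a pseudocount of 1, 1 p53 regulator, 1 pocket, E2F and DREAM gene and 0 Ink4-Arf regulators were higher, and 0 p53 regulators and 1 pocket, E2F and DREAM gene lower. With a pseudocount of 0.1, 1 p53 regulator was lower. With the filter at FPKM of 1, 1 p53 regulator was higher and 1 lower, and 1 pocket, E2F and DREAM gene was higher. Under that filter 15.6% of all rows were higher and 11.9% lower. The other counts stayed within 1.5 times.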

Other observations

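Of 10 genes used as marks of senescent cells, in which CDK inhibitors are high, 5 were lower by at least 2.0-fold and 1 was higher, beside 13.2% and 18.5% of all rows. Il6, an inflammatory cytokine, went from FPKM 9.90 to 0.484. Cxcl1 and Gdf15 were also lower. Lmnb1 (lamin B1), which is low in senescent cells, had 7.34 and 2.12. A lower value thus does not mean the same for every gene of this list. The higher gene was Igfbp3, which binds insulin-like growth factors, with 109 and 1211. Its ratio of 11.1 was the nearest to that of Cdkn2c among the pathway lists. The macrophage marker Adgre1 (ratio 10.2) and the preadipocyte marker Dlk1 (10.8) were nearer to Cdkn2c. Hmgb1 had 73.2 and 64.2.

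Protein-coding neighbours of the 10 genes on their chromosomes were read as well. Of 18 neighbours that are not among the 10 genes, 12 were above 0 in both libraries. Of these, 1 was higher and 1 lower by at least 2.0-fold, beside 18.5% and 13.2% of all rows. Both were under FPKM 1 in both libraries. The lower was Apold1, beside Cdkn1b, with an FPKM of 0.735 and 0.0529, and the higher was Atp1b2, beside Trp53, with 0.184 and 0.532. Mtap, which flanks Cdkn2a and is often lost together with it in tumour cells, was at FPKM 39.2 and 22.1. Faf1, beside Cdkn2c, had 17.8 and 16.3. Wrap53, whose annotated start lies 104 bases from Trp53, had 4.12 and 4.44.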
